A study of Mus musculus with 10 samples.

Results

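ATP-binding cassette (ABC) transporter genes were taken as the protein-coding genes of the table whose symbols carry the family name Abca to Abcg followed by a number. Of the 18464 genes of the table, 37 such members are described. RNA was measured in the ventral midbrain (SNpc/VTA, the region of the dopamine neurons) of naive Aldh1l1-NuTRAP mice, in 5 libraries of input and 5 of the astrocyte fraction. In NuTRAP mice a tag sits on the ribosomes of cells that have used the driver, here Aldh1l1, a gene whose promoter is active mostly in astrocytes in brain. Translating ribosome affinity purification pulls those ribosomes down with their RNA. Both groups have the same strain label, the series describes the mice as naive, and the labels give no age, sex or pooling. Numbers in the titles (88, 92, 976, 981 and 982) recur once in each group, but the labels do not say that the numbers are animals. The p-values therefore measure the spread between these samples, which may be in part technical. In bulk samples such as these, fewer cells of a type and less RNA per cell cannot be told apart. The fraction holds RNA pulled down with ribosomes and the input does not select for it. How much of a transcript is bound to ribosomes therefore cannot be told apart from its level either.

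An ABC transporter binds ATP on paired cassettes in the cytoplasm and uses its hydrolysis to move a substrate across a membrane. The subfamilies are sorted by sequence. Members of A and G mostly move sterols and phospholipids, members of B and C move drugs, conjugates, peptides or metal cofactors, and members of D carry acyl-CoA into peroxisomes or cobalamin out of lysosomes. E and F members have the cassettes but no membrane domain and work on ribosomes. In brain, astrocytes are known for lipidating apolipoprotein E through ABC exporters, and endothelial cells for pumping drugs back into blood.

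The subfamily D genes Abcd2, Abcd3 and Abcd4 (peroxisomal and lysosomal) and the cholesterol exporter Abca1 were higher in the astrocyte fraction. Abcg1 and Abcg4, which export sterols too, the 7 members grouped as endolysosomal or little characterised members of subfamily A, and both sulfonylurea receptor genes were lower. Of these, all but Abca17 kept their calls in each of up to 18 alternatives that tested them. The ribosome-bound members Abce1, Abcf1, Abcf2 and Abcf3 were not called, although total count scaling called all 4 lower and a filter at a mean of 5 CPM called 3 of them lower. All 37 members passed the filter on low counts. Abca17, Abca6 and Abcc3 passed it through their inputs, with at most 10, 11 and 7 counts in any fraction library. Genes that enter in that way can hardly be called higher, so these lower calls are descriptions only. With edgeR's quasi-likelihood test over all 17672 tested genes and a Benjamini-Hochberg adjusted p under 0.05 as the threshold, 8 members were higher, 19 lower and 10 not called. Of all tested genes, 33.1% were higher and 37.5% lower, against 21.6% and 51.4% of the members. The median log2 fold change, fraction minus input, was -0.59 for the members and -0.06 for all tested genes. Without subfamilies E and F, 8 of 33 were higher, 19 lower and 6 not called (median -0.67). Scaling to total counts in place of TMM factors gave 6 higher and 25 lower members, against 24.3% and 47.1% of all tested genes. Higher members then made up 19.4% of called members in place of 29.6%, and the median of all tested genes moved from -0.06 to -0.34. Without fraction 92, the shallowest library, 8 members were higher and 18 lower, against 34.1% and 38.4% of genes. Without numbers 976 and 982, whose libraries held choroid plexus transcripts, 9 were higher and 16 lower, against 32.9% and 32.8%. With the title number as a block, 9 were higher and 18 lower, against 33.3% and 38.7%.

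By subfamily, 1 of 11 ABCA genes was higher and 8 were lower (median -1.15). Of 7 ABCB genes, 3 were higher and 3 lower (median 0.39), and of 9 ABCC genes, 1 was higher and 5 lower (median -0.83). Abcd2, Abcd3 and Abcd4 were higher (median 1.47), and all 3 ABCG genes were lower (median -1.21). In 7 members all 5 fraction libraries lay above all 5 input libraries, and in 16 all 5 lay below. Over all tested genes those shares were 27.2% and 31.1%, against 18.9% and 43.2% of the members. The remaining 14 members had groups that overlapped.

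**Figure D1:**
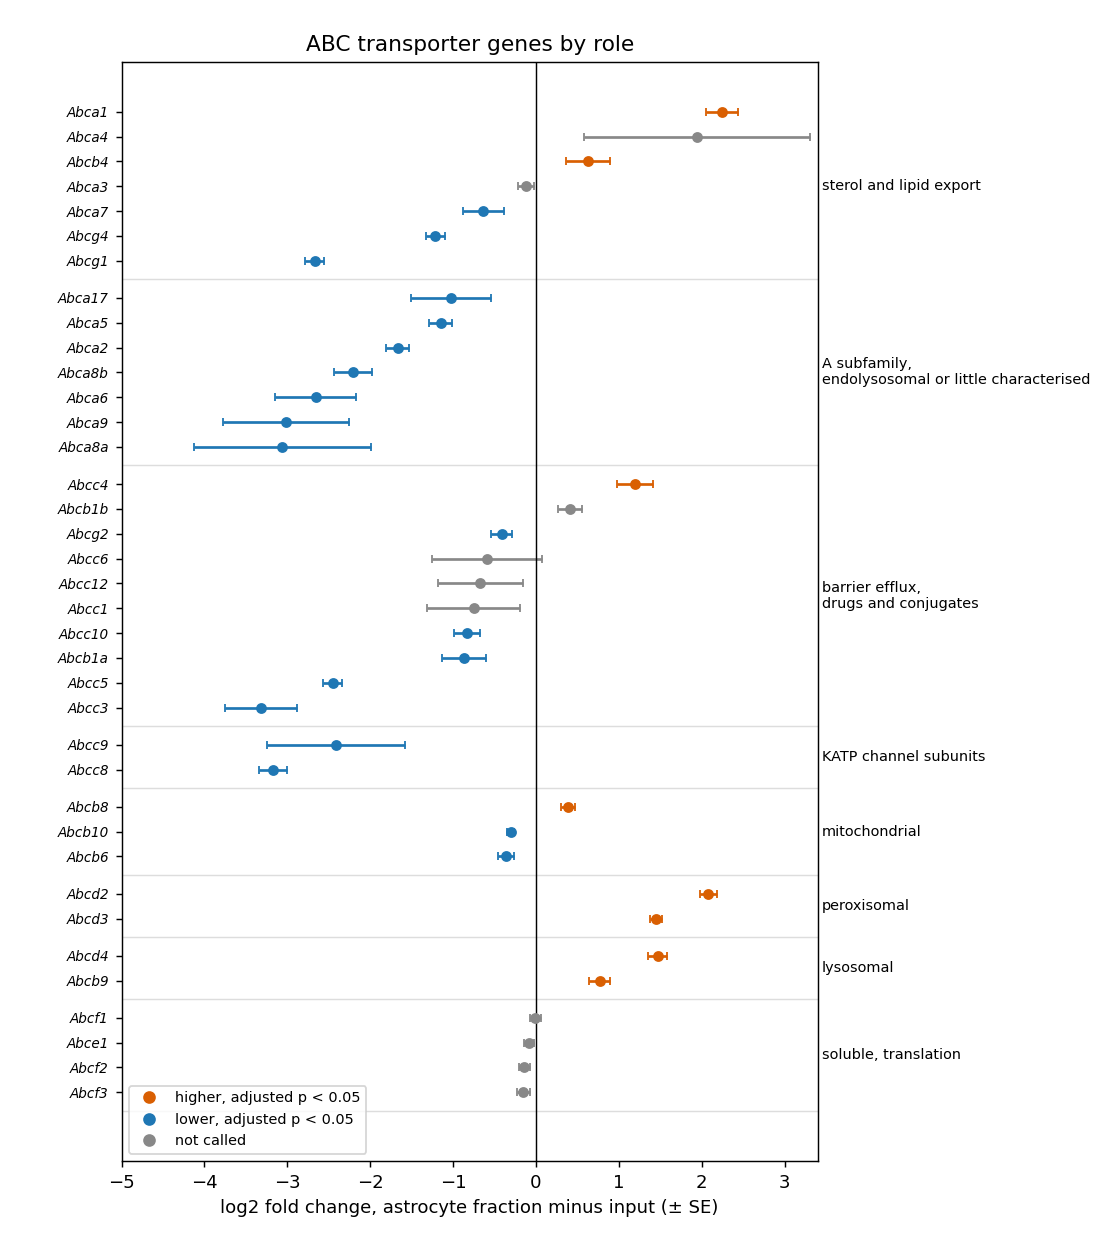
Log2 fold change (astrocyte fraction minus input, edgeR) of the 37 ABC genes, grouped by role, with bars of 1 SE from the log2 CPM of 5 libraries a group; colour marks the call at an adjusted p under 0.05. The peroxisomal and lysosomal genes lie between 0.77 and 2.08, the A subfamily genes grouped as endolysosomal or little characterised lie between -3.06 and -1.02, and Abca1 at 2.25 and Abcg1 at -2.67 lie at opposite ends of the lipid exporters.

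Sequence before the gene start is shown for 5 called members, of which Abcc4 and Abcc5 share a role. They were chosen after their values were seen, from those whose RefSeq window ends at the deposited start. The base composition of members that moved apart can thus be compared. RefSeq windows of the 250 bases before the gene start (GRCm38.p6, the build of the deposited coordinates) were available for 27 members, of which 25 lay within 500 bases of the deposited start. The windows below are of 3 genes that were higher, namely Abca1 (chr4:53159896-53160145, minus strand), Abcd3 (chr3:121815303-121815552, minus strand) and Abcc4 (chr14:118706220-118706469, minus strand), and of 2 that were lower, Abca8b (chr11:109995846-109996095, minus strand) and Abcc5 (chr16:20426395-20426644, minus strand). Each is printed 5′ to 3′ on the strand of its gene, and capitals mark CG dinucleotides.
Abca1: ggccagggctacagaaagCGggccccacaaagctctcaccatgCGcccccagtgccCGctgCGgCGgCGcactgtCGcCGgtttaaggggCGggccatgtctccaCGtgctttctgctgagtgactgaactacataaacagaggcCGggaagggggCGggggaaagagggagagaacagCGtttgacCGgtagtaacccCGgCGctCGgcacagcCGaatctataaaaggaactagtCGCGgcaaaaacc
Abcd3: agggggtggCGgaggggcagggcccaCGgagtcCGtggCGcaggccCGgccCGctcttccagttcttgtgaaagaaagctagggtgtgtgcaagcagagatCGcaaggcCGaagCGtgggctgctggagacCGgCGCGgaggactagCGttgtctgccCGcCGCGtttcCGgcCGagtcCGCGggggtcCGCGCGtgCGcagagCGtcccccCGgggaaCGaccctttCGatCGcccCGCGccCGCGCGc
Abcc4: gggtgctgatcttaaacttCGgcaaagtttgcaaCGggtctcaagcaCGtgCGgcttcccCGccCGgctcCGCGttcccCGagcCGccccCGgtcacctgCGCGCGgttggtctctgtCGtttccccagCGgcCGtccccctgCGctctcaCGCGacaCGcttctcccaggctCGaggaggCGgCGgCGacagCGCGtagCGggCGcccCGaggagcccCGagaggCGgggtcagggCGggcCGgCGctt
Abca8b: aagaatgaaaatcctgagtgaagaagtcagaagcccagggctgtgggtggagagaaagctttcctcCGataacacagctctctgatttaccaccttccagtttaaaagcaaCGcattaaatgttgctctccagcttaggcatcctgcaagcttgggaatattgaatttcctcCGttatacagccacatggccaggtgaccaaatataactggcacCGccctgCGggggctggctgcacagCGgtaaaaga
Abcc5: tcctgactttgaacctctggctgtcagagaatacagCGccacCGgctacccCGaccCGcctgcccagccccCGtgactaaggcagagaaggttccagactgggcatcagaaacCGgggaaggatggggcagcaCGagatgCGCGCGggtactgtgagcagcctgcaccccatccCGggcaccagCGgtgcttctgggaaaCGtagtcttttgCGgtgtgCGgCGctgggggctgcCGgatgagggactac
The windows held 20 CG dinucleotides in Abca1, 34 in Abcd3, 35 in Abcc4, 6 in Abca8b and 17 in Abcc5. Over the 25 members the median was 17 (2 to 35), and over all 32851 RefSeq windows it was 6. The 2 sets are unlike. Each member gave only its window nearest to the deposited start, while all windows were not limited to tested genes, to the nearest window of a gene or by distance. The difference is therefore not a trait of the members. The 5 higher members with a window had 17 to 35, a median of 20. The 13 lower members had 2 to 25, a median of 12, and the 7 members not called had 9 to 25, also with a median of 20. The lowest were Abca9 with 2, Abcg2 with 3 and Abca8a with 4, all among the lower members. The ranges of higher and lower members overlapped, and the lower members Abca5 (25) and Abca2 (20) reached or passed the 20 of Abca1. These counts were not tested.

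Short motifs, none of which contains another, were searched on both strands of the same windows. GGGCGG, the core of a GC box, stood in 15 of 25 member windows (60%) and in 32.7% of all windows. Among the members it stood in 4 of 5 that were higher, 6 of 13 that were lower and 5 of 7 not called. The E-box CACGTG stood in 4 of 25 (16%) against 6.02% of all, namely Abca1 and Abcc4, which were higher, Abca8a, which was lower, and Abcf1, which was not called. AGGTCA, a half-site of nuclear receptors, stood in 3 of 25 (12%) against 14.02% of all, and CCAAT in 6 of 25 (24%) against 33.8%. TATAAA stood in 3 of 25 (12%) against 12.4%, in 1 higher, 1 lower and 1 not called member. The shares of all windows come from the same unlike set, so they are no matched background. A match is a description of these letters only.

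Of 7 sterol and lipid exporters, 2 were higher (28.6%), 3 lower (42.9%) and 2 not called (median log2 fold change -0.12). Those shares were near the 33.1% and 37.5% of all tested genes. Abca1 (chr4:53030787-53159895, minus strand) passes cholesterol and phospholipid to lipid-poor apolipoproteins. In inputs 88, 92, 976, 981 and 982, in that order throughout, it had 46.5, 50.1, 39.9, 49.6 and 31.6 CPM (read counts scaled to TMM library size). In the matching fractions it was at 217, 220.1, 145, 267 and 188 CPM. Every fraction library lay above every input library, with the lowest fraction value in number 976. Its mean rose to 208 ± 45.0 CPM in the fraction from 43.5 ± 7.81 CPM in the input (SD, n = 5), and the fitted log2 fold change was 2.25 ± 0.19 (SE, edgeR adjusted p = 1.19e-07).

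Abcg1 (chr17:31057698-31115777, plus strand), whose product adds cholesterol to particles that already carry lipid, moved the other way. It had 72.5, 77.5, 62.9, 69.8 and 66.5 CPM in the inputs and 9.46, 9.10, 13.6, 11.2 and 10.5 CPM in the fractions. The groups were far apart, and the highest fraction value was again that of number 976. Abcg1 fell by 2.67 ± 0.11 on the log2 scale (SE, edgeR adjusted p = 4.65e-10), 6.35-fold lower than in the input. It had the smallest adjusted p of the 37. Abcg4 (chr9:44273188-44288615, minus strand), a close relative of Abcg1 known mainly from neurons, had 67.7, 88.1, 65.2, 71.1 and 73.4 CPM in the inputs and 32.0, 26.7, 27.5, 33.1 and 36.9 CPM in the fractions. Its groups did not overlap, and its log2 fold change was -1.21 ± 0.11 (SE, edgeR adjusted p = 4.27e-07). Beside both genes, all 9 neuron markers of the list were lower (median -2.44, summed CPM 4869 to 5975 in the inputs and 937 to 1276 in the fractions), as were all 7 microglia markers (median -3.64, summed CPM 265 to 364 and 52.3 to 66.8). Their part in the values of Abcg1 and Abcg4 was not tested.

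The balance of the exporters was compared within each library as a log2 ratio. All 8 such ratios were chosen after the values were seen. In 2 of them, Abca1 to Abcg1 and Abcb8 to Abcb10, one gene was higher and the other lower without overlap, so that the ratio had to separate the groups, and it is given with no test. The other 6 were tested with a two-sided exact permutation test over samples. It treated the libraries as unpaired, and no form that keeps libraries of a title number together was run. The smallest p that 5 against 5 allows is 0.00794, which adjusts to 0.0159 over the 6. That adjustment does not cover the choice among other possible pairs, so these p-values are descriptive. The ratio of Abca1 to Abcg1 went from 0.616 in the input to 18.98 in the fraction, a difference of 4.95 ± 0.24 on the log2 scale (SE). Abcg1 also fell relative to Abcg4, by 1.47 ± 0.15 on the log2 scale, with the same p of 0.00794 in the exact permutation test. The ratio of Abca1 to Apoe, whose protein accepts the lipid, differed by -0.34 ± 0.19 with overlapping groups (exact permutation p = 0.127, adjusted 0.152).

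Other lipid exporters gave smaller or less certain differences. Abca7, a phospholipid exporter related to Abca1, had 24.3, 40.2, 31.3, 25.9 and 28.4 CPM in the inputs and 15.1, 15.3, 31.1, 14.4 and 19.8 CPM in the fractions. The fraction of number 976 lay among the inputs and the other 4 fractions lay below all of them. Its log2 fold change was -0.63 ± 0.24 (SE, edgeR adjusted p = 0.02), a call lost when input 92 or fraction 88, 92 or 981 was left out, with adjusted p between 0.0525 and 0.0551. Abcb4, a phosphatidylcholine translocator best known from bile, was low in all libraries, at 3.43 to 5.34 CPM in the inputs and 4.11 to 9.18 CPM in the fractions. Its groups overlapped. It was called higher at a log2 fold change of 0.63 ± 0.27 (SE, edgeR adjusted p = 0.0312), but 9 of the 18 alternative settings lost that call, 6 of them by leaving out 1 library (inputs 88, 92 and 982, fractions 88, 981 and 982), with adjusted p from 0.0504 to 0.219. Abca3, which loads surfactant lipid into lamellar bodies in lung, ran from 113 to 159 CPM in the inputs and from 109.5 to 131 CPM in the fractions. It was not called, at a log2 fold change of -0.12 with a 95% interval of -0.32 to 0.08, but total count scaling and a filter at a mean of 5 CPM called it lower (edgeR adjusted p = 0.000711 and 0.0377). An antisense model overlaps 9.75% of its exon bases.

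**Figure D2:**
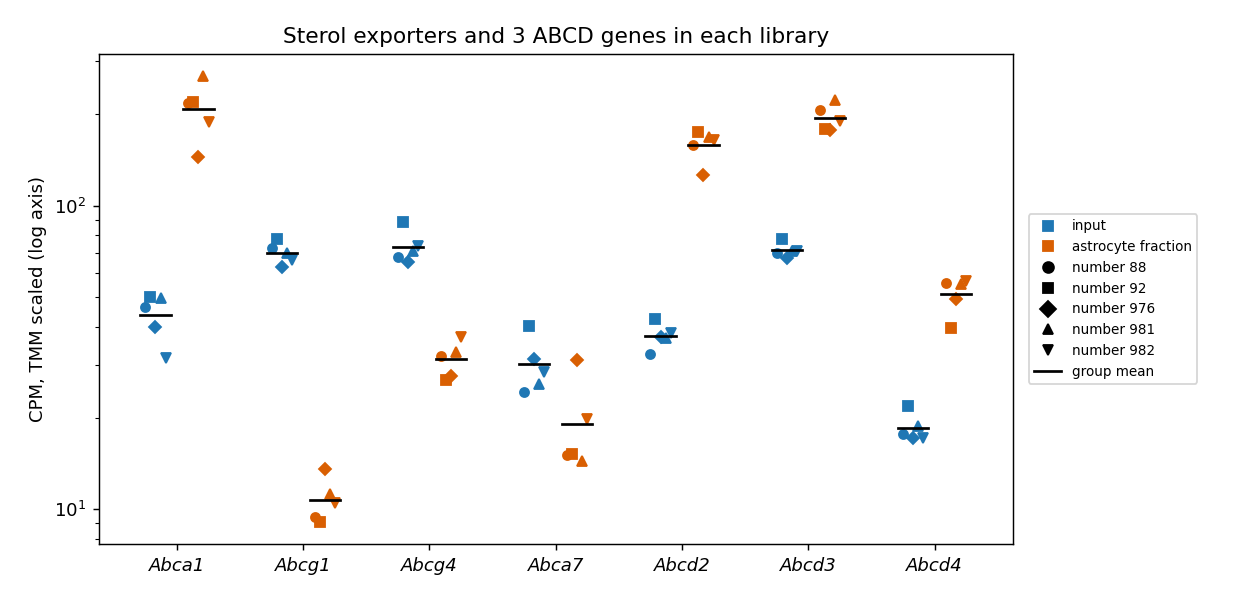
CPM (TMM scaled, log axis) in each library of 4 sterol and lipid exporter genes and of Abcd2, Abcd3 and Abcd4; blue is input, orange the astrocyte fraction, the symbol marks the title number and the line the mean of 5. Abca1 and these 3 genes have all fractions above all inputs, Abcg1 and Abcg4 have all below, and the Abca7 fraction of number 976 (31.1 CPM) lies among the inputs.

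Abca4, a retinoid and phosphatidylethanolamine flippase best known from photoreceptors, varied more between title numbers than between fraction and input of a number. In the inputs it had 1.30, 1.34, 23.7, 1.04 and 4.92 CPM and in the fractions 3.88, 2.35, 92.8, 1.67 and 20.5 CPM. Numbers 976 and 982 were the highest in both groups, and within every number the fraction exceeded the input. The log2 fold change was 1.94 ± 1.36 (SE) with a 95% interval of -1.13 to 5.04, and it was not called (edgeR adjusted p = 0.225). The value rested on number 976, being 0.30 without fraction 976 and 3.49 without input 976 (edgeR adjusted p = 0.835 and 0.0516). With the title number as a block it was 1.61 and called (edgeR adjusted p = 1.22e-05), and without numbers 976 and 982 it was 1.18 and called (edgeR adjusted p = 0.0214).

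Markers of choroid plexus, which secretes cerebrospinal fluid, were high in the same libraries. Inputs 976 and 982 had 2965 and 604 CPM of the transthyretin gene Ttr, their fractions had 11036 and 2312 CPM, and all other libraries had 0.334 to 11.5 CPM. Of the 8 listed choroid plexus and ependyma markers 6 were measured, and all 6 missed the call (edgeR adjusted p 0.0676 to 0.547), with 1 at an unadjusted p under 0.05 and 1 called by DESeq2. Their summed level ran from 33.1 to 3281 CPM in the inputs and from 81.9 to 12490 CPM in the fractions. In number 976 the Abca4 level was 19.3 times the mean of numbers 88, 92 and 981 in the input and 35.3 times in the fraction. For Abcc4 the same ratio was 1.15 and 1.94, for Abcc1 1.07 and 3.07, and for Abca7 1.04 and 2.09. The part of this tissue in these values was not tested.

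**Figure D3:**
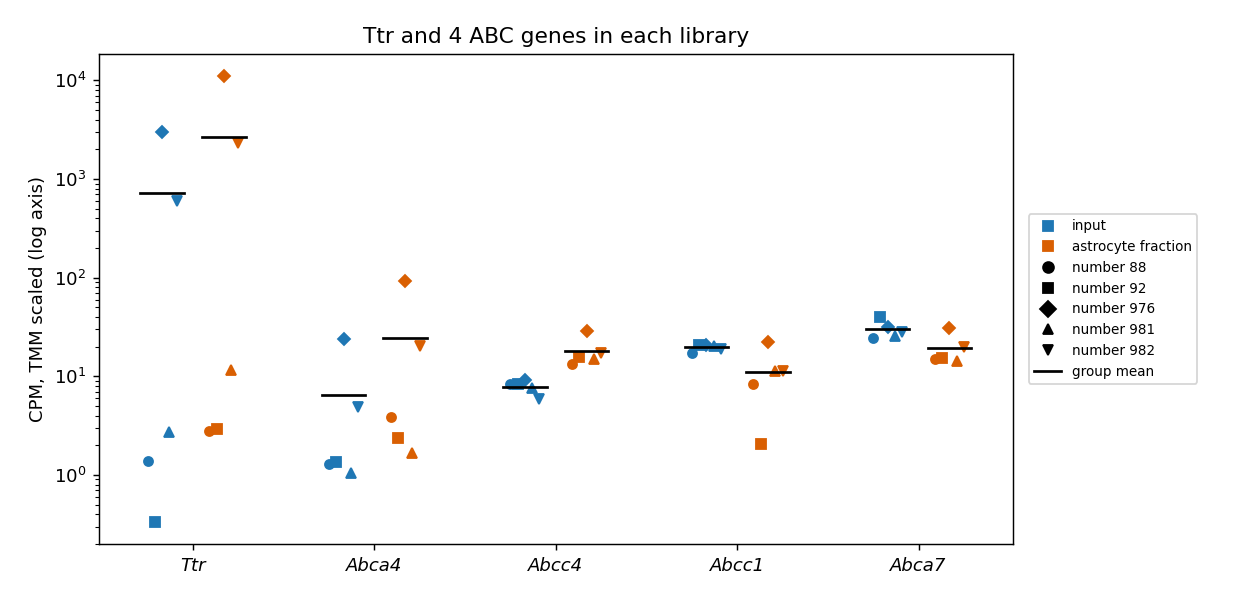
CPM (log axis) of Abca4, Abcc1, Abcc4 and Abca7 beside Ttr in each library, by title number, for input and astrocyte fraction. Ttr and Abca4 are highest in numbers 976 and 982 in both groups, while Abcc4, Abcc1 and Abca7 in number 976 are 1.94 to 3.07 times the mean of numbers 88, 92 and 981 in the fraction and 1.04 to 1.15 times in the input.

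All 7 measured members of subfamily A that act in endolysosomes or are little characterised were lower (median log2 fold change -2.21), against 37.5% of all tested genes. Abca17 and Abca6 among them entered the test through their inputs. Abca2 (chr2:25428703-25448540, plus strand), an endolysosomal lipid transporter abundant in oligodendrocytes, had 438, 513, 407, 408 and 437 CPM in the inputs and 121, 119, 175, 116 and 159 CPM in the fractions. The groups did not overlap, and numbers 976 and 982 were the highest fractions. Its mean fell to 138 ± 26.9 CPM in the fraction from 440.3 ± 43.3 CPM in the input (SD, n = 5), and the fitted log2 fold change was -1.67 ± 0.14 (SE, edgeR adjusted p = 7.25e-08). All 7 oligodendrocyte markers were lower too (median -3.69, summed CPM 5892 to 7250 in the inputs and 914 to 1253 in the fractions), and their part in the value of Abca2 was not tested. Abca17, which stands next to Abca3 on chromosome 17 and is little characterised, was at most 0.956 CPM in any library. Its log2 fold change of -1.02 ± 0.48 (SE, edgeR adjusted p = 0.0299) rested on 22 counts over the 5 fractions, and 6 settings lost the call (adjusted p 0.0562 to 0.278), 5 of them by leaving out input 976 or 981 or fraction 976, 981 or 982.

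The other 5 stand side by side on the minus strand of chromosome 11 in the order Abca8b (chr11:109932190-109995845), Abca8a (chr11:110025634-110095978), Abca9 (chr11:110100749-110168196), Abca6 (chr11:110176820-110251776) and Abca5 (chr11:110269369-110337716). In each of them all 5 fractions lay below all 5 inputs, and their median log2 fold change was -2.66. Neighbours with related sequence are not independent of each other. Abca8a had 24.0, 25.0, 23.5, 25.6 and 24.5 CPM in the inputs and 2.49, 0, 4.94, 1.67 and 3.62 CPM in the fractions. Its inputs spanned a narrow range, and fraction 92, the shallowest library, had no count, which allows up to 0.880 CPM there. The log2 fold change was -3.06 ± 1.07 (SE, edgeR adjusted p = 1.78e-05). Abca8b, with 2.45% of its 50-base words in other genes, the most in Abca8a, had 23.2, 18.1, 14.0, 24.0 and 14.4 CPM in the inputs and 5.71, 2.93, 3.19, 3.68 and 3.93 CPM in the fractions, a log2 fold change of -2.21 ± 0.23 (SE, edgeR adjusted p = 1e-06). Abca9 and Abca6, whose substrates are not settled, were lower by 3.02 ± 0.76 and 2.66 ± 0.49 on the log2 scale (SE, edgeR adjusted p = 1.32e-05 and 1.82e-05). Their means were 7.38 ± 1.25 and 2.05 ± 0.444 CPM in the inputs and 0.731 ± 0.601 and 0.219 ± 0.182 CPM in the fractions (SD, n = 5). The fractions held 88 and 26 counts together, and fraction 92 had no count for either gene. The fraction level of Abca6 is thus close to what 3 counts allow. Abca5, a lysosomal member of the group, was the most abundant of the 5. It had 46.8, 53.3, 34.6, 54.5 and 40.6 CPM in the inputs and 20.1, 22.9, 18.9, 23.0 and 18.9 CPM in the fractions, and its fall of 1.15 ± 0.14 on the log2 scale was the smallest of the 5 (SE, edgeR adjusted p = 4.21e-06). Of 6 fibroblast and arachnoid markers, 1 was higher, 3 lower and 2 not called (median -0.93, summed CPM 80.9 to 109 in the inputs and 46.3 to 98.5 in the fractions), and their part in these values was not tested.

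Of 10 barrier efflux genes, 1 was higher, 5 were lower and 4 not called (median log2 fold change -0.71). Of all tested genes, 33.1% were higher and 37.5% lower. The one that was higher was Abcc4 (chr14:118482692-118706219, minus strand), which exports cyclic nucleotides, prostaglandins and conjugates. In the inputs it had 8.33, 8.27, 9.25, 7.57 and 5.84 CPM and in the fractions 13.3, 15.8, 28.6, 15.0 and 17.4 CPM. All fractions lay above all inputs, with number 976 well above the other fractions. The mean rose to 18.0 ± 6.10 CPM in the fraction from 7.85 ± 1.27 CPM in the input (SD, n = 5), and the fitted log2 fold change was 1.20 ± 0.22 (SE, edgeR adjusted p = 0.000165). Abcc4 was called in all 18 alternatives.

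Abcc5 (chr16:20331303-20426394, minus strand), an exporter of cyclic nucleotides and of glutamate conjugates, was the most abundant efflux gene in the input. It had 157, 227, 159.9, 186 and 145 CPM in the inputs and 30.8, 31.4, 33.1, 33.1 and 30.9 CPM in the fractions. The fractions spanned a range of under 3 CPM, all below the inputs. The log2 fold change was -2.45 ± 0.12 (SE, edgeR adjusted p = 1.13e-09). Abcc3, an exporter of glucuronides and bile salts, had a log2 fold change of -3.32 ± 0.43 (SE, edgeR adjusted p = 1.51e-06), the lowest of the 37. It had 3.42, 3.22, 1.44, 2.54 and 2.51 CPM in the inputs, and the fractions held 19 counts together, so its level there is close to what 3 counts allow. Abcc10, a lysosomal and plasma membrane drug exporter, was lower by 0.83 ± 0.16 on the log2 scale without overlap (SE, edgeR adjusted p = 0.000224).

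P-glycoprotein, the main drug pump of the blood-brain barrier, is encoded in rodents by Abcb1a (chr5:8660077-8748575) and Abcb1b (chr5:8798147-8866315). Abcb1a had 17.3, 19.4, 11.6, 14.4 and 13.5 CPM in the inputs and 9.79, 7.04, 4.35, 9.62 and 10.4 CPM in the fractions. All fractions lay below all inputs, with number 976 the lowest in both groups. Abcb1a fell by 0.87 ± 0.27 on the log2 scale (SE, edgeR adjusted p = 0.0038). Abcb1b had 2.45, 2.49, 3.02, 2.12 and 1.70 CPM in the inputs and 3.14, 2.93, 2.79, 3.21 and 3.66 CPM in the fractions, with groups that overlapped through number 976. It was not called, at a log2 fold change of 0.41 ± 0.15 (SE, 95% interval -0.03 to 0.87, edgeR adjusted p = 0.0857), and it passed the threshold without input 976 (adjusted p 0.0498) or fraction 976 (0.0481). The ratio of Abcb1b to Abcb1a went from 0.156 to 0.403, a log2 difference of 1.37 ± 0.27 (exact permutation p = 0.00794, the smallest possible). This pair was chosen after the values were seen, and Abcb1a alone already separated the groups, so that p adds no support. Transcripts of the pair share sequence. Of the 50-base words, 22.5% of those of Abcb1a and 12.8% of those of Abcb1b were found in other genes, the most in each other. The division of reads between Abcb1a and Abcb1b is therefore uncertain. Abcb1a also has 10.1% of its exon bases under an antisense model.

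Abcg2, the breast cancer resistance protein and the other main pump of the barrier, had 9.54, 7.99, 7.48, 6.45 and 8.29 CPM in the inputs and 6.89, 5.87, 6.10, 6.16 and 4.70 CPM in the fractions. The groups overlapped, and the log2 fold change was -0.41 ± 0.13 (SE, edgeR adjusted p = 0.03). That call was lost in 6 settings, namely without input 88, 92 or 982, without fraction 976 or 982 and without numbers 976 and 982, with adjusted p from 0.0528 to 0.404. Endothelial markers, listed as the cells in which Abcb1a and Abcg2 are best known, had 1 higher, 4 lower and 4 not called of 9 (median -0.24), and summed to 110 to 130 CPM in the inputs and 93.6 to 113 CPM in the fractions. Their part in the values of both pumps was not tested.

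Abcc1, which exports glutathione and its conjugates, was uneven in the fraction. The inputs had 17.4, 20.7, 20.8, 20.5 and 18.9 CPM and the fractions 8.36, 2.05, 22.3, 11.3 and 11.3 CPM. Fraction 976 lay above all inputs, fraction 92 was the lowest and the other 3 lay below the inputs. It was not called, at a log2 fold change of -0.75 ± 0.56 (SE, 95% interval -1.56 to 0.06, edgeR adjusted p = 0.0875). Without fraction 976 it was -1.04 and called lower (edgeR adjusted p = 0.00604), and DESeq2 called it lower at -0.82 (adjusted p = 0.0264). Total count scaling, a filter at a mean of 5 CPM (edgeR adjusted p = 0.0497) and leaving out numbers 976 and 982 called it lower as well. The ratio of Abcc4 to Abcc1 went from 0.397 to 1.98, a log2 difference of 2.32 ± 0.49 (exact permutation p = 0.00794, the smallest possible). This pair was chosen after the values were seen, and Abcc4 alone already separated the groups, so that p adds no support. Abcc6, which releases ATP to prevent calcification, and Abcc12, which is little characterised, were at or under 1.14 CPM in every library and were not called, with 95% intervals of -2.12 to 0.73 and -1.98 to 0.37 on the log2 scale.

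**Figure D4:**
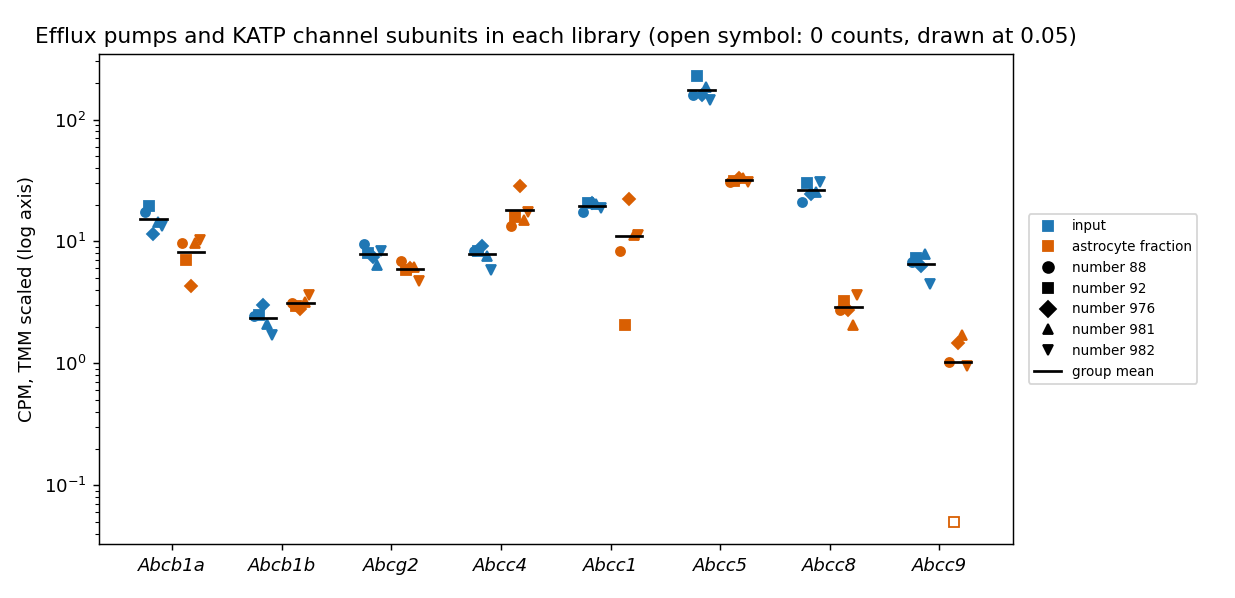
CPM (TMM scaled, log axis) in each library of barrier efflux genes and the sulfonylurea receptor genes Abcc8 and Abcc9; blue is input, orange the astrocyte fraction, the symbol marks the title number and the line the mean of 5. Abcc4 has all fractions above all inputs (13.3 to 28.6 CPM against 5.84 to 9.25), Abcb1a, Abcc5 and Abcc8 have all below, and Abcc1 spans 2.05 to 22.3 CPM in the fraction. The open symbol is the Abcc9 fraction of number 92, which had 0 counts.

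Both regulatory subunits of ATP-sensitive potassium channels were lower. These receptors, SUR1 and SUR2, transport nothing known and gate a Kir6 pore by the ratio of ATP to ADP. Abcc8 (chr7:46104523-46180033, minus strand), which encodes SUR1 and is known from neurons and beta cells, had 21.2, 29.97, 24.5, 25.3 and 30.7 CPM in the inputs and 2.73, 3.23, 2.75, 2.05 and 3.66 CPM in the fractions. The log2 fold change was -3.18 ± 0.17 (SE, edgeR adjusted p = 3.1e-09), with all fractions far below all inputs. Abcc9, which encodes SUR2 and is known from mural cells of vessels, had 6.74, 7.30, 6.30, 7.86 and 4.46 CPM in the inputs and 1.02, 0, 1.48, 1.71 and 0.949 CPM in the fractions. Fraction 92 had no count, and the groups did not overlap. The log2 fold change was -2.41 ± 0.83 (SE, edgeR adjusted p = 4.04e-05).

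Both pore genes fell as well. Kcnj11, which encodes Kir6.2, changed by -2.27 (edgeR adjusted p = 7.93e-08), and Kcnj8, which encodes Kir6.1, changed by -1.66 on the log2 scale (edgeR adjusted p = 0.000735). The ratio of Abcc8 to Kcnj11 differed by -0.79 ± 0.29 between fraction and input (exact permutation p = 0.0476, adjusted 0.0714). The adjusted value was 0.0238 without fraction 92. The ratio of Abcc9 to Kcnj8 differed by -1.21 ± 0.93 (exact permutation p = 0.23). In fraction 92 Abcc9 had no count and Kcnj8 had 1.76 CPM, so the ratio there rested on the added pseudocount. The SD of this log2 ratio was 2.06 in the fractions and 0.303 in the inputs, so the size of the difference is uncertain. Without fraction 976 the adjusted p of Abcc9 to Kcnj8 was 0.0238, the same as for Abcg1 to Abcg4. Fraction 92 was still included in that comparison. The neuron markers given above were all lower. Of 7 pericyte and smooth muscle markers, 6 were lower and 1 higher (median -1.56, summed CPM 137 to 175 in the inputs and 68.2 to 121 in the fractions). Their part in the values of the receptor genes was not tested.

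The peroxisomal genes Abcd2 and Abcd3 were both higher. Abcd2 (chr15:91145884-91191807, minus strand) carries very long and polyunsaturated acyl-CoA into peroxisomes. It had 32.5, 42.5, 37.0, 36.7 and 38.1 CPM in the inputs and 158, 175, 126, 169 and 165 CPM in the fractions. Number 976 was the lowest fraction and still lay far above the inputs. The mean rose to 159 ± 19.2 CPM in the fraction from 37.4 ± 3.59 CPM in the input (SD, n = 5). This was a 4.23-fold gain, or a log2 fold change of 2.08 ± 0.10 (SE, edgeR adjusted p = 1.5e-09).

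Abcd3 (chr3:121758774-121815302, minus strand), which carries branched and dicarboxylic acyl-CoA, had 69.97, 77.6, 67.1, 71.2 and 70.8 CPM in the inputs and 207, 178, 178, 222 and 189.7 CPM in the fractions. The groups did not overlap, and the log2 fold change was 1.45 ± 0.07 (SE, edgeR adjusted p = 3.84e-09).

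Both lysosomal members were higher. Abcd4 (chr12:84601464-84617413, minus strand), which with Lmbrd1 releases cobalamin from lysosomes, had 17.7, 21.9, 17.2, 18.8 and 17.2 CPM in the inputs and 55.5, 39.6, 49.3, 55.5 and 56.6 CPM in the fractions, a log2 fold change of 1.47 ± 0.12 (SE, edgeR adjusted p = 9.3e-08). Abcb9 (chr5:124061530-124095798), which moves peptides into lysosomes, had 57.8, 56.7, 55.3, 54.6 and 52.5 CPM in the inputs and 88.3, 68.4, 99.0, 98.8 and 115 CPM in the fractions, a log2 fold change of 0.77 ± 0.13 (SE, edgeR adjusted p = 3.72e-05). In both genes fraction 92 was the lowest fraction and still lay above every input.

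Mitochondrial members moved little, and not in 1 direction. Abcb8, of the inner membrane, had 47.6, 46.1, 46.0, 44.7 and 48.4 CPM in the inputs and 60.2, 48.7, 64.8, 61.4 and 68.5 CPM in the fractions. All fractions lay above all inputs, fraction 92 by the narrowest margin. Its log2 fold change was 0.39 ± 0.09 (SE, edgeR adjusted p = 0.00109), a call lost with total count scaling (0.11, adjusted p = 0.314). Abcb10, which acts in haem and biliverdin handling, had 44.3, 37.9, 38.4, 40.9 and 39.4 CPM in the inputs and 32.2, 31.1, 31.9, 33.6 and 33.3 CPM in the fractions. It was lower without overlap, at -0.31 ± 0.04 (SE, edgeR adjusted p = 0.0021), with 10.3% of its exon bases under an antisense model, and not called without numbers 976 and 982 (adjusted p = 0.0892). The ratio of Abcb8 to Abcb10 differed by 0.68 ± 0.08 on the log2 scale (SE).

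Abcb6, a porphyrin transporter, had 9.63, 8.88, 7.70, 7.53 and 9.17 CPM in the inputs and 6.12, 6.46, 7.34, 5.94 and 7.42 CPM in the fractions, a log2 fold change of -0.36 ± 0.10 (SE, edgeR adjusted p = 0.0301). With the title number as a block the call was lost (adjusted p = 0.0547), as it was without input 88, 92 or 982, without fraction 88, 976 or 981 and without numbers 976 and 982, the highest adjusted p being 0.111. Another gene model on its own strand covers 55.2% of its exon bases, so its counts are uncertain.

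Peroxisomal, lysosomal and mitochondrial members together counted 5 higher and 2 lower of 7 (median log2 fold change 0.77). Those shares were 71.4% and 28.6%, against 33.1% and 37.5% of all tested genes. The soluble members had the role median nearest to 0 (-0.11). Abce1, which splits ribosomes after termination, had 64.0, 76.3, 61.5, 68.2 and 63.8 CPM in the inputs and 60.6, 61.3, 67.1, 65.0 and 61.6 CPM in the fractions, a log2 fold change of -0.08 with a 95% interval of -0.24 to 0.08. Abcf1, Abcf2 and Abcf3, which act in translation initiation and stress signalling, had log2 fold changes of -0.01, -0.14 and -0.15. Their 95% intervals were -0.17 to 0.16, -0.30 to 0.02 and -0.33 to 0.03. None of the 4 was called (edgeR adjusted p 0.113 to 0.925), 0 had an unadjusted p under 0.05 and DESeq2 called 0. At total count scaling all 4 were called lower. With a filter at a mean of 5 CPM, Abce1 (-0.17), Abcf2 (-0.23) and Abcf3 (-0.25) were called lower too (edgeR adjusted p 0.00923 to 0.0372).

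Levels were compared between genes per kilobase of exon. In the input Abca2 was the highest at 52.8 ± 5.19 CPM per kb (SD, n = 5), followed by Abcf2 at 35.0, Abcf1 at 26.3, Abcf3 at 24.4 and Abcc5 at 16.4. In the fraction the order was Abcf2 at 31.8, Abcd3 at 29.6, Abcd2 at 26.7, Abcf1 at 26.2, Abcf3 at 21.8 and Abca1 at 20.03 CPM per kb. Abcd2 moved from rank 14 to rank 3 of 37, Abca1 from 16 to 6 and Abcd4 from 22 to 13. Abcg1 moved from rank 12 to 21, Abcc5 from 5 to 15 and Abca2 from 1 to 8. In the fraction the SD over 5 libraries was 2.94 for Abcd3, 3.24 for Abcd2 and 2.58 CPM per kb for Abcf1, so the order of Abcd2 and Abcf1 does not differ beyond their spread. The lowest in both groups were under 0.11 CPM per kb, namely Abcc6, Abcc12 and Abca17, and in the fraction also Abca9, Abca6 and Abcc3.

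**Figure D5:**
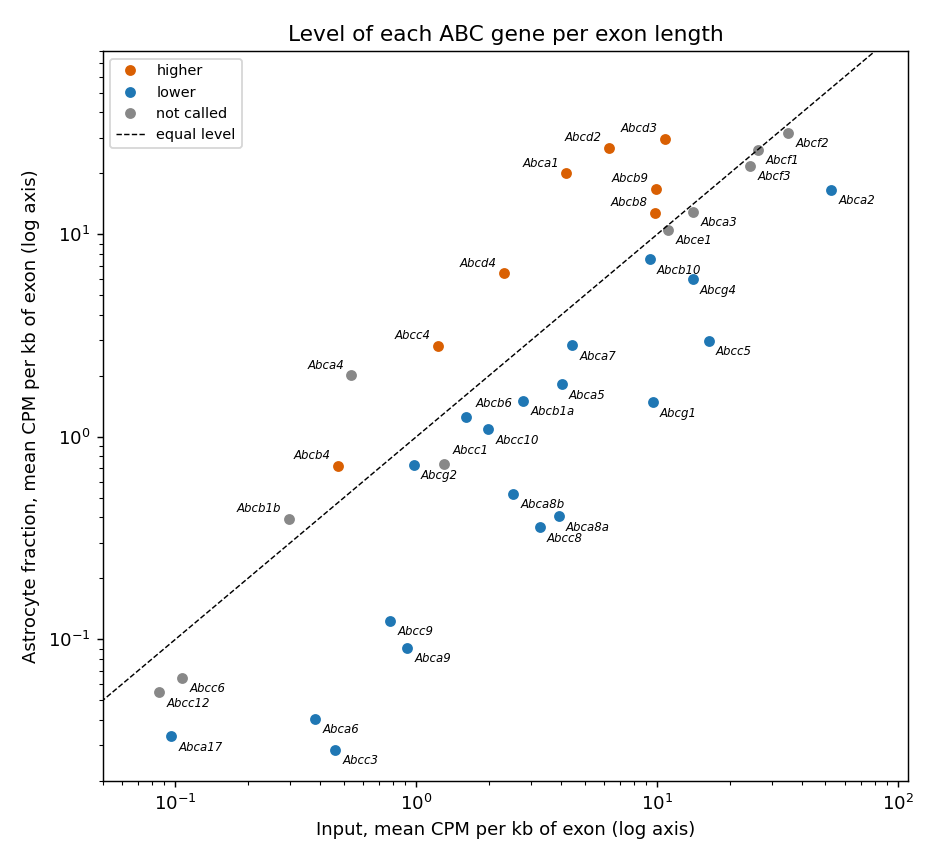
Mean level of the 37 ABC genes in the astrocyte fraction (vertical) against the input (horizontal), in CPM per kb of exon on log axes, with the line of equal levels. Abcd2, Abcd3, Abcd4 and Abca1 lie above the line at medium to high levels, Abcg1, Abcc5, Abcc8 and the Abca8a group lie below it, and Abce1 and the ABCF genes lie on or close to it.

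Genes of the same pathways were read from lists of partners. The counts of each list, here and in the next paragraph, stand against 33.1% higher and 37.5% lower of all tested genes. Of 21 measured lipid export partners, 13 were higher, 5 lower and 3 not called (median log2 fold change 0.52). Lcat, which esterifies cholesterol on lipoproteins (3.04), and the apolipoprotein Clu (2.63) were the highest called, and Apod, another apolipoprotein (-2.59), and Cyp46a1, which turns cholesterol into an oxysterol in neurons (-1.90), the lowest. Of 16 peroxisome partners, 11 were higher, 2 lower and 3 not called (median 0.83). The acyl-CoA synthetase Acsbg1 (3.13) and the lipid carrier Scp2 (2.38) led, and the fatty acid transport proteins Slc27a2 (-2.47) and Slc27a4 (-0.87) were lower.

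Of 17 iron-sulfur and haem partners, 10 were higher, 2 lower and 5 not called (median 0.48). The cysteine desulfurase Nfs1 (1.29) and the co-chaperone Hscb (1.22) led, and the iron carrier Slc25a37 (-1.99) and the haem enzyme Cpox (-1.58) were lower. Of 7 cobalamin partners, 5 were higher and 2 not called (median 0.54), led by the mutase Mut (2.03) and the trafficking protein Mmachc (1.04). Of 16 barrier uptake and efflux partners, 4 were higher, 7 lower and 5 not called (median -0.06). The stress regulator Nfe2l2 (2.45) and the thyroid hormone carrier Slco1c1 (2.04) were the highest called, and the receptor Ahr (-2.38) and the carrier Slco2b1 (-2.12) the lowest. Of 8 ribosome rescue partners, 3 were higher, 2 lower and 3 not called (median 0.15), with Gspt1 (0.76) and Hbs1l (0.48), both release or rescue factors, higher and Gcn1l1 (-0.91) and the kinase Eif2ak4 (-0.77) lower. ABC genes with other names were Tap1 (1.53) and Tap2 (1.77), the antigen peptide transporter, both higher, and Cftr (-0.12), a chloride channel, not called (edgeR adjusted p = 0.719).

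The fractions were checked against marker lists. All 8 astrocyte markers were higher (median log2 fold change 3.04, summed CPM 3102 to 3391 in the inputs and 18184 to 27533 in the fractions), and Aldh1l1 itself had 108, 99.0, 88.2, 104 and 98.2 CPM in the inputs and 877, 773, 673, 849.6 and 899 CPM in the fractions. The lists of other cell types are given above, and their part in the values of the members was not tested. No listed marker of any cell type was at 0 in all fractions. Total expected counts ran from 21812193 to 30878894 in the inputs and from 24479136 to 26924406 in 4 fractions, and were 3845554 in fraction 92.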

How the data were processed

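PolyA RNA of 10 libraries was sequenced, from 25 ng of RNA per library (NEB Ultra II, per the labels' protocols). The authors deposited 1 table with expected counts, not scaled, and log2 values that they normalized and centred on the input median of each gene. CASAVA 1.8, DESeq and mm10 are named in the submitters' processing notes. The sources used here do not give the aligner, counting tool or strand setting. Counts of overlapping genes on either strand, and of genes with shared sequence, are therefore uncertain.

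Expected counts were rounded and fitted over the whole table with edgeR 4.0.16 in R 4.3.3 (TMM, filterByExpr with a minimum count of 10, robust quasi-likelihood test, prior count 2). The filter kept 17672 genes and removed 792, and p-values were Benjamini-Hochberg adjusted over those kept. SE are from the log2 CPM of the libraries, and 95% intervals are of the unshrunk coefficient. An SE printed beside an edgeR value is therefore not the error behind its p-value, and can be wider or narrower. Alternatives used DESeq2 1.42.0, limma 3.58.1, other scalings and filters, a block and left-out libraries. A count of 0 allows up to 3 counts, or 0.0912 to 0.125 CPM in the inputs, 0.880 CPM in fraction 92 and 0.120 to 0.136 CPM in the other fractions, for counting error only. Ratios of 2 genes were taken as the log2 ratio of their counts in a library, with a pseudocount of 0.5 counts added to each. For 6 of 8 they were tested with the exact permutation test in scipy 1.17.1.

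Whether the title numbers pair the libraries was checked in the data. After removal of group means, same-numbered libraries correlated at 0.189 to 0.493, and each of them but 982 correlated best with its own number. Number 982 correlated at 0.189 with itself and at up to 0.302 with another number, so the check does not settle the pairing.

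The symbol rule finds 39 genes, of 50 such symbols in GENCODE M21 (the other 11 were not analysed here), and 2 of the 39 are not reported here. The other 37 are named, and of each partner list of over 4 genes the 2 highest and 2 lowest called were named. Members, roles and lists were chosen with earlier results of these data known, and support nothing independently.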

Additional observations from a re-analysis of the deposited data

Results flagged for a closer look

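Among 74 groups (37 members in 2 groups of 5 libraries), 3 had a library that stood apart from the other 4 by more than Dixon's 95% value of 0.71 for the gap over the range. Chance marks about 1 in 20 such groups. All 3 were libraries of number 976. Abca4 was at 23.7 CPM in input 976 against 1.04 to 4.92 in the other inputs, and at 92.8 CPM in fraction 976 against 1.67 to 20.5 in the other fractions. Abcc4 was at 28.6 CPM in fraction 976 against 13.3 to 17.4 in the other fractions. Fraction 976 also had the highest Ttr level, at 11036 CPM. The part of choroid plexus RNA in the 3 values was not tested.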

How the results depend on the processing

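Each member was refitted under 18 alternatives, and 22 of 37 members kept their call and direction in every alternative that tested them. The number of higher members ran from 6 to 9, that of lower members from 16 to 25 and the median log2 fold change of the members from -0.83 to -0.40. Leaving out 1 library gave 7 to 9 higher and 16 to 18 lower, and leaving out numbers 976 and 982 gave 9 and 16. Abcf1, near 0, changed sign. It went from -0.01 to 0.012 without the low count filter and to 0.070 without numbers 976 and 982, and ran from -0.037 to 0.082 when 1 library was left out. The cause was not tested. Total count scaling called Abca3, Abcc1, Abce1, Abcf1, Abcf2 and Abcf3 lower, and a filter at a mean of 5 CPM called the same genes lower except Abcf1 (adjusted p 0.00923 to 0.0497), and lost the call of Abcb4. With the title number as a block, a pairing that the check did not show for number 982, 9 members were higher and 18 lower. The block added Abca4 (1.61) and lost Abcb6 (-0.36), and changed no other call. Checks of the ratios, with a pseudocount of 1 and with each library left out, were chosen after seeing the data. The fraction of number 92 has the least depth, and it had no count for 6 members.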
